A study of Mus musculus with 34 samples.

Results

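The rodent LINE-1 families are the L1 retrotransposon families of mice and their close relatives. They were taken by name, as the rows of the repeat-family tables that start with L1Md_, L1_Mus, L1_Mm, L1_Mur, L1_Rod, L1VL or Lx. The rule found 39 families, all present both among the 1482 families of the soma table and among the 1456 of the primordial germ cell (PGC) table. They fall into 6 L1Md families, 8 L1_Mus, L1_Mm and L1VL families, 4 L1_Mur and L1_Rod families and 21 Lx families. They are described in that order. The order rests on the names, with L1Md taken as young and Lx as older. Age was not measured here, so the place of L1_Mur and L1_Rod in the order does not give their age.

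H3K9me2, dimethylation of lysine 9 of histone H3, was mapped by CUT&RUN in the gonads of female C57BL/6 mouse embryos at embryonic day 13.5. CUT&RUN uses an antibody to bring a nuclease to the mark and release the DNA around it, here from 1000 sorted cells per library. All embryos were Gulo-/-, so they could not make vitamin C, which reached them through the mother and was supplied at physiological levels or withdrawn for the first part of gestation. The Oct4GFP+ cells were the PGCs, from which gametes form, and the Oct4GFP- remainder of the gonad, a mixture of cell types, was the soma. The tables hold no expression, so markers of these cells could not be checked. The H3K9me2 libraries numbered 5 supplied and 5 withdrawn for PGCs and 4 supplied and 3 withdrawn for soma. The labels call the libraries of a group biological replicates and do not say more of their origin. The p-values rest on the spread between these libraries, pooled over families or genes. For soma families they use 7410 degrees of freedom where the 7 libraries leave 5, so that pooling makes them much smaller.

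LINE-1 elements copy themselves through an RNA that encodes an RNA-binding protein and a protein with endonuclease and reverse transcriptase activity. In the mouse, copies able to move are known among L1Md_A, L1Md_T and L1Md_Gf, whose promoters are built of repeated monomers, while Lx elements are remnants of an older burst of copying. H3K9me2 is laid down mainly by the paired methyltransferases Ehmt1 and Ehmt2, and demethylases of the Jumonji family, which remove it, work better with vitamin C. PGCs of this stage are known to have lost most DNA methylation and much of their H3K9me2, the systems that otherwise restrain L1.

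The values are statistics of the authors' comparison, and values per library were not analysed here. For that reason levels in each vitamin C group are given as implied by the mean and the fold change of a family, with all libraries weighted alike. Neither the antibody nor the direction stands in the headers, and the H3K9me2 libraries were assumed to be the ones compared. The standard errors in soma fitted 4 libraries subtracted from 3 with a misfit of 0.193%, against 1.61% for the reverse. Allowing an offset in depth between the groups brought the reverse to 0.877% at best and left the former at 0.193%. Soma values were therefore taken as withdrawn minus supplied. PGCs have equal groups, and their sign was assumed to follow that of soma. The geometric mean effective library size was at least 2130351 reads over families in soma and 792226 in PGCs. Each rodent LINE-1 family thus had a geometric mean of at least 1228 (Lx2A) to 102392 (L1Md_F2) reads per library in soma and 412 to 31441 in PGCs. Families of near-identical sequence, such as L1Md_A, L1Md_T and L1Md_Gf, may share reads, and the sources used here do not give the counting of such reads.

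These families made up much of the repeat signal. L1Md_F2 had the highest mean of all families in both tables, at 15.55 log2 CPM, counts scaled to library size, in soma and 15.28 in PGCs in the authors' deposited tables, and L1Md_T the next, at 14.86 and 14.62. Of the 20 families with the highest mean, 12 in soma and 7 in PGCs were rodent LINE-1 families. The lowest of the 39 in both tables was Lx2A, at 9.17 and 9.02 log2 CPM in the authors' deposited tables. Together they took 32.4% of the summed implied CPM of all families in supplied soma and 29.6% in supplied PGCs. These levels were not divided by the number or length of the copies, so they do not rank families by density of the mark.

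In soma, H3K9me2 signal over nearly all rodent LINE-1 families was higher with vitamin C withdrawn. By the authors' deposited table, rises with an adjusted p under 0.05 (limma) numbered 38 of the 39 families and falls 0, and the remaining family, L1_Rod, did not pass. The same table called 77.0% of all families as risen and 0.405% as fallen, and 78.3% had an unadjusted p under 0.05, so a rise was the common state of repeats in soma. The share risen was 85.6% without the lowest quartile of means and 83.8% without simple repeats, with 38 of the 39 in each. The 39 had a median level of 12.56 log2 CPM against 5.87 for all families, and smaller standard errors, with a median of 0.22 against 0.29. The median log2 fold change was 0.98 for rodent LINE-1 families, or 1.97-fold, and 1.18 for all families, or 2.27-fold. Implied CPM summed over all families was 748757 in supplied and 1432305 in withdrawn soma, 1.91 times as much. The sources used here do not give the scaling of the libraries, so a family is also given relative to the median of all families. In a mixture such as soma, a changed mix of cells and a changed mark per cell cannot be told apart.

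L1Md_A, L1Md_T and L1Md_Gf rose most among the 39. L1Md_A went from an implied 13.57 log2 CPM in supplied to 15.18 in withdrawn soma. The authors' deposited table gives it a rise of 1.60 ± 0.20 (log2, SE, limma's adjusted p = 1.53e-12), the smallest p of all 1482 families. For L1Md_T, at an implied 14.20 and 15.74 log2 CPM, the authors' deposited table gives a rise of 1.54 ± 0.20 (adjusted p = 2.84e-12). L1Md_Gf, the rarest of these in the libraries, had an implied 9.26 and 10.90 log2 CPM and, in the authors' deposited table, a rise of 1.64 ± 0.24 (adjusted p = 2.8e-09). Each rise was about 3-fold, at 3.04-fold, 2.91-fold and 3.11-fold. By fold change these families ranked 89, 144 and 67 of 1482, and the next of the 39, Lx8, ranked 627.

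The other L1Md families, named F for their monomer type, lay lower. L1Md_F rose by 1.22 ± 0.23, L1Md_F2 by 1.04 ± 0.19 and L1Md_F3 by 0.98 ± 0.21 in the authors' deposited table (adjusted p = 6.36e-07, 5.05e-07 and 1.01e-05). L1Md_F2, the most abundant, went from an implied 15.11 to 16.15 log2 CPM. The lower end of the 95% interval of L1Md_A, 1.21, lies below the upper end of that of L1Md_F2, 1.42, so the intervals overlap. A test between families needs the covariance of their errors, which values per library would give, and was not run.

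The L1_Mus, L1_Mm and L1VL families, the next in the order, formed a narrow band. All 8 rose in the authors' deposited table, from 0.82 ± 0.24 for L1VL1 (adjusted p = 0.000831) to 1.08 ± 0.20 for L1_Mus1 (adjusted p = 8.01e-07). Between them the authors' deposited table has L1_Mm at 1.02, L1_Mus2 at 0.97, L1_Mus4 and L1VL4 both at 0.98 and L1VL2 at 0.91. L1_Mus3, the most abundant of them at an implied 14.20 and 15.12 log2 CPM, rose by 0.91 ± 0.20 in the authors' deposited table. The gap between the lowest and the highest was close to the standard error of a single family.

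L1_Mur and L1_Rod, which lie between the Mus and Lx families in the order, had the lowest median of the 4 groups, 0.56. The authors' deposited table gives rises of 0.77 ± 0.21 for L1_Mur2 (adjusted p = 0.000465), 0.63 ± 0.21 for L1_Mur3 (adjusted p = 0.00372) and 0.50 ± 0.22 for L1_Mur1 (adjusted p = 0.0318). The value of L1_Rod in the authors' deposited table, 0.27 ± 0.22, did not pass (adjusted p = 0.242) and had a 95% interval from -0.15 to 0.70. Its implied level went from 12.44 to 12.72 log2 CPM, while that of L1_Mur2 went from 12.87 to 13.64. L1_Rod ranked 1350 of 1482 by fold change and L1_Mur1 1242. The call of L1_Mur1 ended when the 5 degrees of freedom left by the 7 libraries replaced those pooled over families (adjusted p = 0.0976) and with an adjustment that allows any dependence between families (adjusted p = 0.25).

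All 21 Lx families rose, with a median of 0.996 on the log2 scale. In the authors' deposited table Lx3_Mus was lowest at 0.74 ± 0.21 (adjusted p = 0.000873) and Lx8 highest at 1.29 ± 0.21 (adjusted p = 2.86e-08). Lx8 went from an implied 12.76 to 14.05 log2 CPM. The numbers in the Lx names gave no order of fold changes. In the authors' deposited table Lx rose by 1.05, Lx2 by 1.13, Lx3A by 0.89, Lx3B by 1.16, Lx4A by 0.92, Lx5 by 0.87 and Lx6 by 0.93. The authors' deposited table also has Lx7 at 0.83, Lx8b at 1.04, Lx9 at 0.95 and Lx10 at 1.11. Its values for Lx2A, Lx2A1, Lx2B and Lx2B2, subdivisions of a single number, were 0.91, 0.93, 1.05 and 1.06 in the authors' deposited table. Families with the same number could lie apart, as Lx8 and Lx8b or Lx3B and Lx3A, though by less than their 95% intervals, which overlap.

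**Figure D1:**
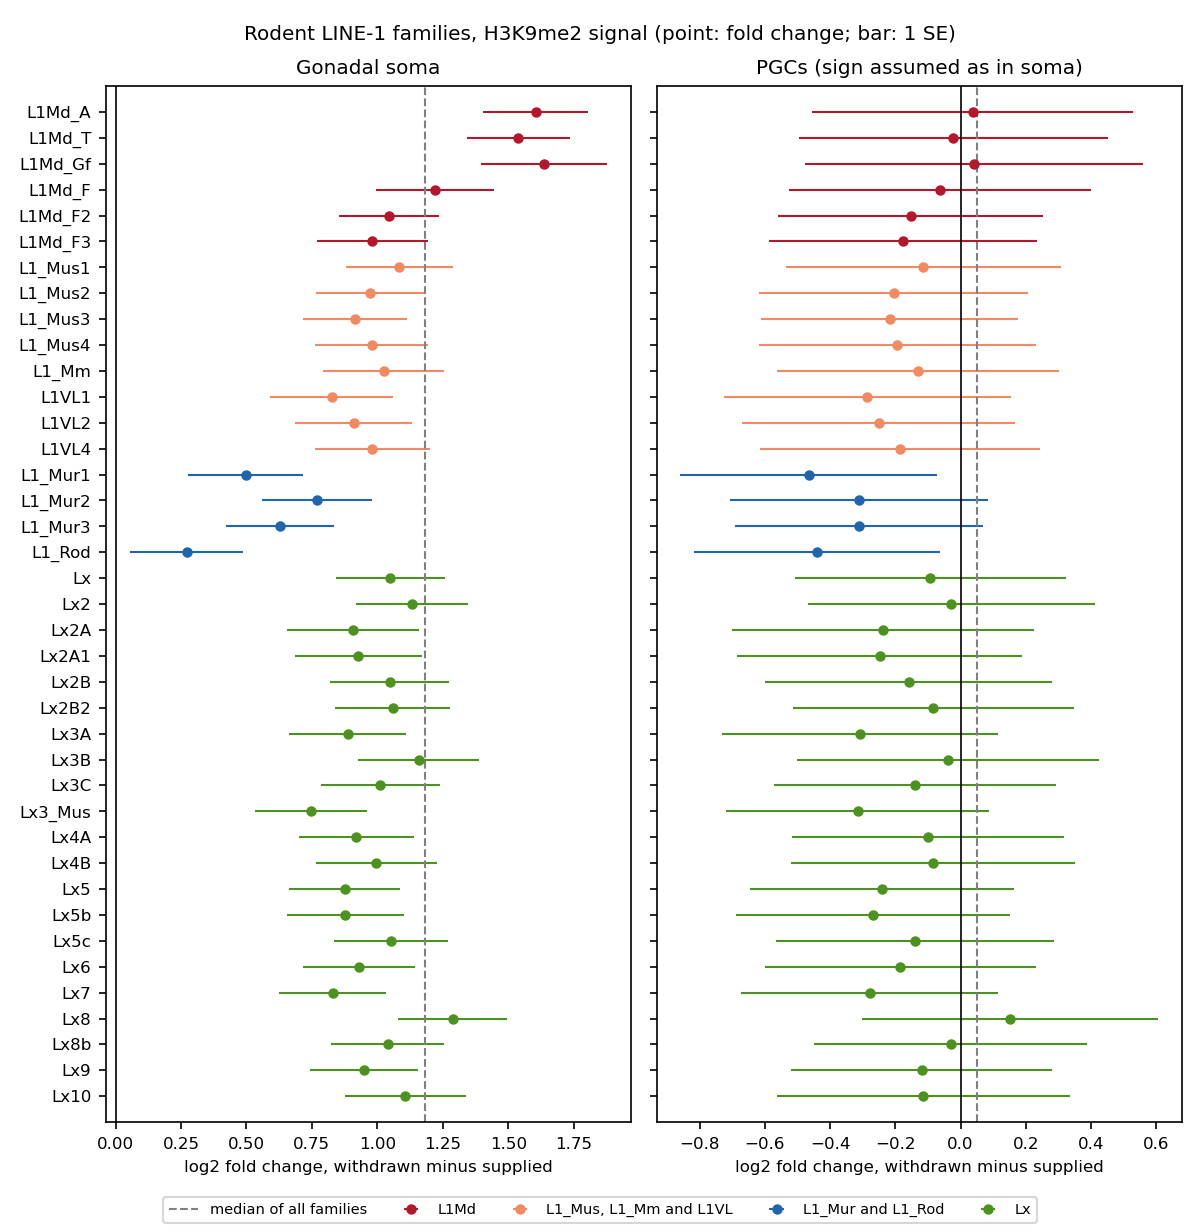
Log2 fold change of H3K9me2 signal (x axis, withdrawn minus supplied) in soma on the left and PGCs on the right. The y axis holds the 39 rodent LINE-1 families, with L1Md at the top and Lx at the bottom. Points are the fold change and bars 1 SE, colours mark the groups of families, and the dashed line is the median of all families, 1.18 in soma and 0.050 in PGCs. In soma L1Md_A, L1Md_T and L1Md_Gf lie farthest right and L1_Rod farthest left.

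Relative to the median of all families in soma, no rodent LINE-1 family lay higher past the threshold and 2 lay lower. Over all families these calls made up 0.0% and 8.77%. L1_Rod stood at -0.91 relative to the median, 0.532 times the typical change (adjusted p = 0.000886, limma's standard error), and L1_Mur1 at -0.69 (adjusted p = 0.0242). L1_Mur3 at -0.56 did not pass (adjusted p = 0.0716), nor did L1_Mur2 at -0.41 (adjusted p = 0.279). L1Md_Gf, L1Md_A and L1Md_T stood at 0.45, 0.42 and 0.36 above the median and did not pass (adjusted p = 0.321, 0.223 and 0.344). At an unadjusted p under 0.05, 6 of the 39 families differed from the median, as did 261 of all 1482 families. The 6 were L1Md_A, Lx3_Mus and the 4 L1_Mur and L1_Rod families. Of the 39, 34 lay below the median and 5 above it, the latter being L1Md_A, L1Md_T, L1Md_Gf, L1Md_F and Lx8. With 5 residual degrees of freedom both calls ended (adjusted p = 0.28 for L1_Rod and 0.35 for L1_Mur1), and that of L1_Mur1 ended with the median gene as the centre (adjusted p = 0.149).

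Shares of the summed repeat signal do not depend on the scaling of the libraries, and by value they went opposite ways within LINE-1. L1Md_A, L1Md_T and L1Md_Gf together made up an implied 4.22% of the signal of all families in supplied soma and 6.54% in withdrawn soma. The 4 L1_Mur and L1_Rod families went from 3.62% to 2.84%. L1_Mus, L1_Mm and L1VL families went from 6.94% to 7.12% and Lx families from 11.7% to 12.1%. All 39 families together went from 32.4% to 34.9%. These shares come from group levels with no value per library, so they have no error and were not tested.

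**Figure D2:**
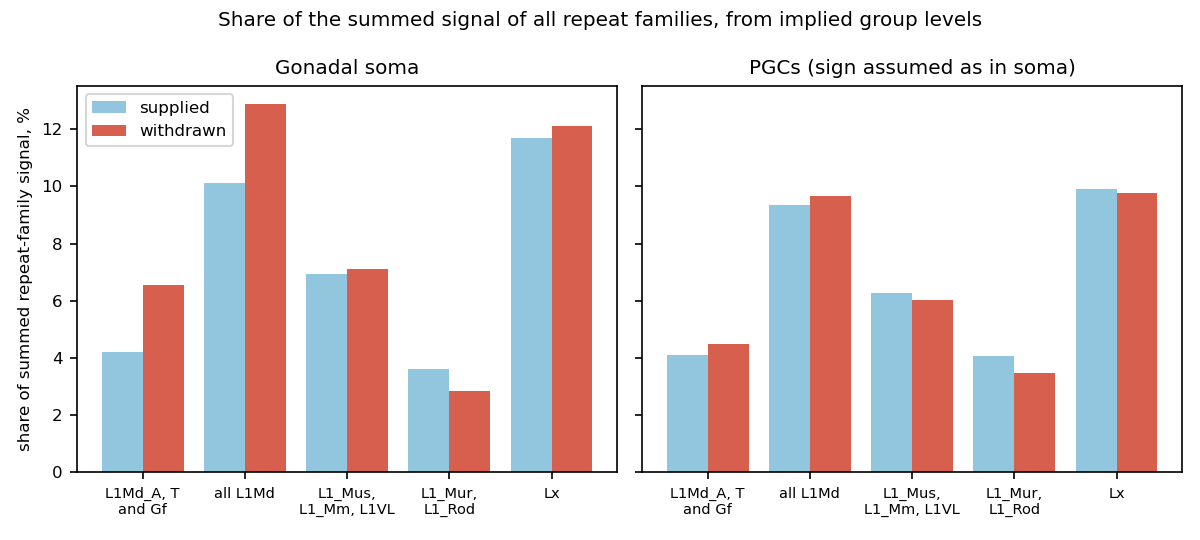
Share of the summed implied CPM of all repeat families (y axis, percent) taken by groups of rodent LINE-1 families (x axis) in supplied (blue) and withdrawn (red) libraries of soma and PGCs. L1Md_A, L1Md_T and L1Md_Gf are also part of the bar of all L1Md. In soma their share was 4.22% supplied and 6.54% withdrawn, and in PGCs, with the sign assumed, 4.08% and 4.48%.

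In PGCs no rodent LINE-1 family passed. Of the 39 families 0 had an adjusted p under 0.05 (limma) in the authors' deposited table, as did 0.0% of all families in either direction, and 0 of the 39 had an unadjusted p under 0.05, against 0.137% of all families. With the sign assumed as in soma, 36 families were negative and 3 positive, against 649 negative and 807 positive over all 1456 families. The median was -0.16 for the 39 against 0.050 for all families. The 39 share libraries and may share reads, so the count of signs was not tested. L1Md_A stood at 0.037 ± 0.49, L1Md_T at -0.023 ± 0.47 and L1Md_Gf at 0.042 ± 0.52 in the authors' deposited table. The implied level of L1Md_A was 13.81 log2 CPM in supplied and 13.85 in withdrawn PGCs, and that of L1Md_T 14.63 and 14.61. The 95% interval of L1Md_A ran from -0.97 to 1.04, so a change of about 2-fold either way was not detectable in these 10 libraries.

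The lowest values in PGCs were again those of L1_Mur1 at -0.47 ± 0.39 and L1_Rod at -0.44 ± 0.38 in the authors' deposited table (p = 0.247 and 0.252 before adjustment, limma). L1_Mur2 and L1_Mur3 both stood at -0.31 in the authors' deposited table. L1Md_F2 stood at -0.15 ± 0.41 and L1_Mus3 at -0.22 ± 0.39 in the authors' deposited table. Lx families ran from -0.32 for Lx3_Mus to 0.15 for Lx8 in the authors' deposited table, the same lowest and highest Lx families as in soma. With the sign turned, all of these directions reverse.

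The order of the 39 families was alike in the soma and PGC comparisons, which share no library. The labels do not say whether soma and PGCs came from the same embryos, so the comparisons may not be independent. Across the families the log2 fold changes had a Spearman correlation of 0.93 and a Pearson correlation of 0.88, against 0.64 and 0.57 across all 1445 families in both tables. Without L1Md_A, L1Md_T and L1Md_Gf these were 0.91 and 0.90 over 36 families. This is a description across families, which may share reads, copies of like base composition and the same upstream processing. The 39 had higher median levels than all families, 12.56 against 5.87 log2 CPM in soma and 12.20 against 5.36 in PGCs. Their median standard errors were smaller, and the 2 sets were not matched for level or error. The correlation would be negative with the PGC sign turned.

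**Figure D3:**
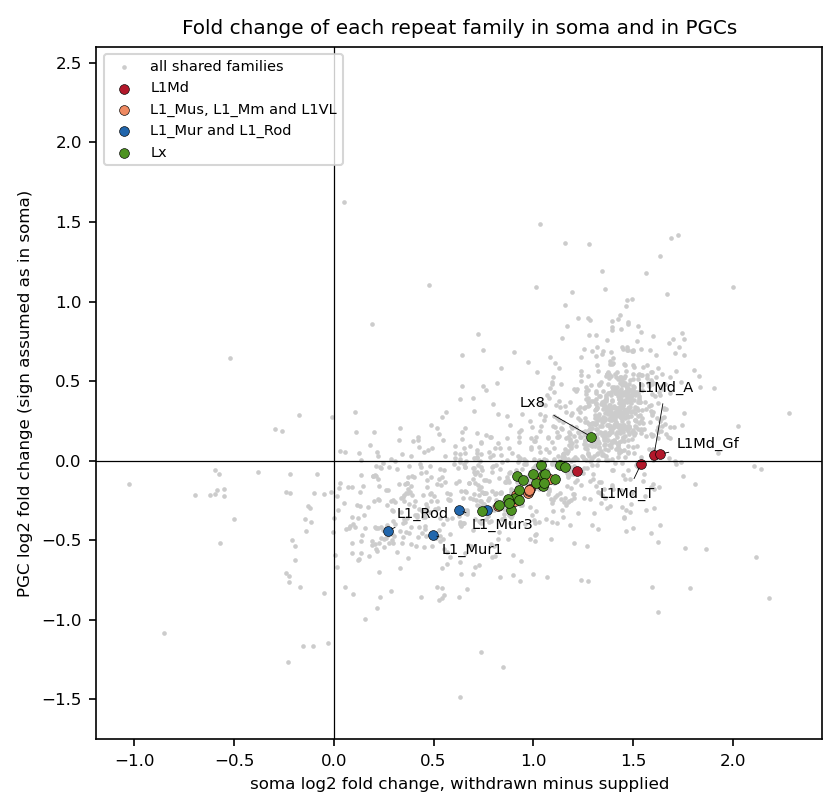
Log2 fold change in soma (x axis) against PGCs (y axis), both withdrawn minus supplied with the PGC sign assumed, for the 1445 repeat families in both tables (grey) and the 39 rodent LINE-1 families (coloured by group). The rodent LINE-1 families run along a line from L1_Rod and L1_Mur1 at the lower left to Lx8, and L1Md_A, L1Md_T and L1Md_Gf lie to the right of it with PGC values of 0.037, -0.023 and 0.042.

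The soma and PGC fold changes lay farthest apart, by value, in L1Md_A, L1Md_T and L1Md_Gf. The difference was 1.57 ± 0.53 for L1Md_A, 1.56 ± 0.51 for L1Md_T and 1.59 ± 0.57 for L1Md_Gf (log2, SE), and the smallest was 0.71 ± 0.44 for L1_Rod. With the PGC sign as assumed, all 39 differences were positive, as were 1413 of the 1445 over all families in both tables. Of the 39, 38 had an unadjusted p under 0.05, from 0.00408 for L1Md_T upward, as did 23.6% of all families. The median difference was 1.15 for the 39 and 1.06 for all families in both tables. The 39 had smaller median standard errors than all families, 0.22 against 0.29 in soma and 0.42 against 0.57 in PGCs. None of the 39 passed after adjustment over the 1445 families (adjusted p = 0.192 for L1Md_T), as for 0.0% of all families. The 95% interval of the L1Md_A difference ran from 0.49 to 2.64. With the PGC sign turned, 38 differences were positive, 10 of the 39 had an unadjusted p under 0.05 against 46.5% of all families, L1_Mur1 stood at 0.032 and L1_Rod at -0.17. In that reading 4 of the 39 families passed, L1Md_A, L1Md_T, L1Md_Gf and Lx8 (adjusted p = 0.0433 for each), as did 27.5% of all families.

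Relative to the median of each table, the soma minus PGC difference was 0.43 ± 0.53 for L1Md_A, 0.43 ± 0.51 for L1Md_T and 0.46 ± 0.57 for L1Md_Gf. For L1_Rod it was -0.42 ± 0.44. None of the 39 passed (adjusted p = 1.00 for each of these), and 0 had an unadjusted p under 0.05. The median of the 39 was 0.019 on this scale, with 25 positive and 14 negative. Over all families in both tables it was -0.075, with 537 positive and 908 negative. At an unadjusted p under 0.05, 0.83% of all families differed on this scale. With the PGC sign turned the median was -0.41, with 4 positive (L1Md_A, L1Md_T, L1Md_Gf and Lx8) and 35 negative, and L1_Rod stood at -1.40.

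Averaged over all libraries, the level of most of these families was slightly higher in soma than in PGCs, while in supplied libraries the implied level of most was lower in soma. On the log2 CPM scale, in which the 2 tables were normalised separately, soma minus PGC was positive for 35 of the 39 families. Its median was 0.27 for the 39 and 0.55 for all shared families, of which 1002 of 1445 were positive. Among the 39 it was highest for Lx8 at 0.90 and L1Md_F at 0.68. It was negative for L1_Rod at -0.50, L1_Mur1 at -0.23, L1_Mur3 at -0.092 and Lx3_Mus at -0.049, which were also the 4 families with the lowest fold change in soma. The soma mean includes the withdrawn libraries, so the level and the fold change are not independent. In the supplied libraries alone the implied difference was negative for 35 of the 39 families, with a median of -0.25, and positive for L1Md_F, Lx2, Lx8 and Lx10. It was -0.84 for L1_Rod, -0.68 for L1_Mur1 and -0.24 for L1Md_A. With the PGC sign turned it was negative for 29 of the 39, with a median of -0.079, and stood at -0.40 for L1_Rod, -0.21 for L1_Mur1 and -0.28 for L1Md_A. Summed implied CPM over all families was 748757 in supplied soma and 993551 in supplied PGCs, so CPM and shares can differ in sign. By share of those sums the 39 together were higher in soma, at 32.4% against 29.6%, or 28.9% with the PGC sign turned. With the sign as assumed, L1Md_A was higher too, at 1.63% against 1.45%. L1_Rod and L1_Mur1 were lower, at 0.744% against 1.00% and 0.549% against 0.662%.

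Other LINE families give the setting. The 90 older L1 families in both tables, L1MA to L1ME and their like, had a soma median of 0.92 and spread from -0.13 to 1.62. The authors' deposited table has 59 of these 90 risen and 0 fallen, against 77.0% and 0.405% of all families. Relative to the median of all families 26 of these 90 lay lower, as did 2 of the 39 rodent families, against 8.77% overall. Older L1 families had larger standard errors, with a median of 0.26 against 0.22, and a lower median level, 8.33 against 12.56 log2 CPM. The 20 other LINE families, such as L2 and CR1, had a soma median of 0.83 with 13 risen in the authors' deposited table. The 25 IAP families, endogenous retroviruses, had 1.53, with all 25 risen in the authors' deposited table, and the values of L1Md_A, L1Md_T and L1Md_Gf lie among theirs in soma. In PGCs the IAP median was 0.32, above the values of all 39 rodent LINE-1 families, and the older L1 median was -0.18, near that of the rodent families at -0.16. With the PGC sign turned the IAP median was -0.32, below the values of all 39. These medians were not tested against each other.

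**Figure D4:**
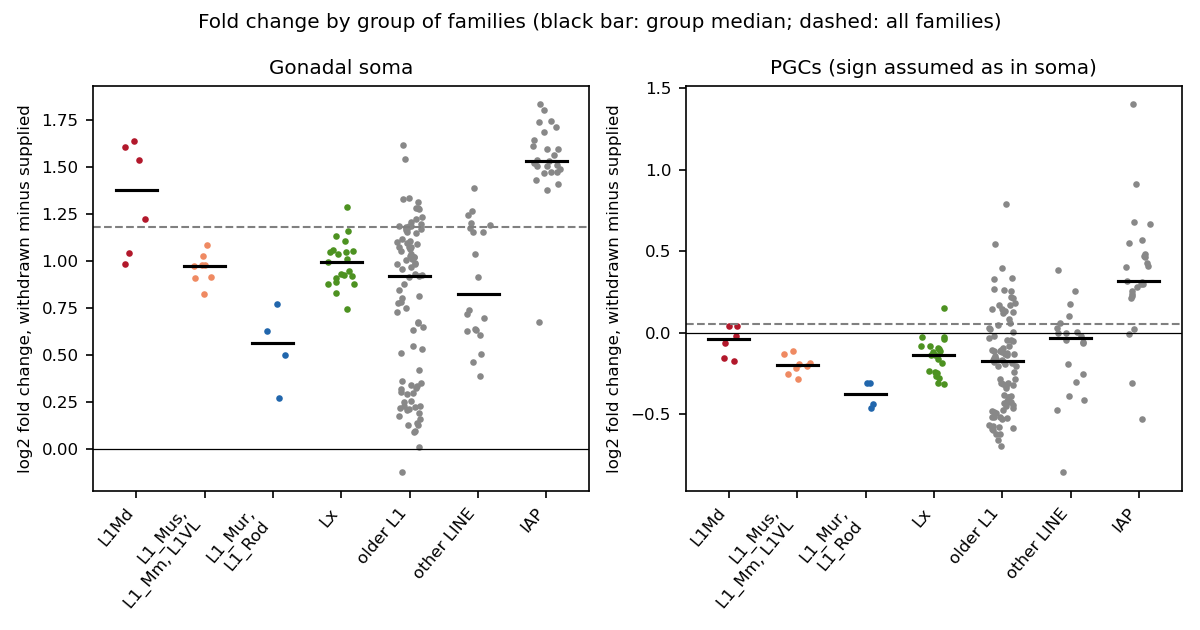
Log2 fold change, withdrawn minus supplied (y axis), of each family in the 4 groups of rodent LINE-1 (coloured) and in older L1, other LINE and IAP families (grey), in soma and PGCs. Black bars are group medians and the dashed line is the median of all families. In soma the medians are 1.38 for L1Md, 0.98 for L1_Mus, L1_Mm and L1VL, 0.56 for L1_Mur and L1_Rod and 0.996 for Lx.

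Among the 23 other families with means within 2 log2 CPM of L1Md_A in both tables, the most like it were SINEs and a satellite. B3A, B3, B4A and RSINE1, short elements that borrow the LINE machinery or descend from such, stood at 1.40, 1.32, 1.43 and 1.48 in soma and at 0.20, 0.14, 0.31 and 0.38 in PGCs in the authors' deposited tables. GSAT_MM, the major satellite, stood at 1.43 and 0.41 in the authors' deposited tables. Likeness was the summed absolute difference of both fold changes, which was 0.374 for B3A, the nearest, and each of these 5 had a lower soma value than L1Md_A. Their PGC values lie above that of L1Md_A with the sign as assumed and below it with the sign turned, while the likeness is the same either way.

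H3K9me2 over most genes that restrain L1 was also higher in withdrawn soma, as over most genes. Of 24 listed genes 22 were measured, and 19 rose and 0 fell in soma in the authors' deposited table, against 68.2% of all genes risen. Their median was 0.97 against 1.04 for all genes, and 0 of the 22 differed from the median gene past the threshold (limma's standard error), as did 1.35% of all genes, and 2 did at an unadjusted p under 0.05, as did 8.72% of all genes. Tdrd9, a helicase of the piRNA pathway, had the smallest p of the list, and the authors' deposited table gives it 1.29 ± 0.24 (adjusted p = 2.73e-06). Trim28, a corepressor, stood at 0.71 ± 0.52, Ehmt2, the H3K9me2 methyltransferase, at 0.48 ± 0.31 and Samhd1, a nucleotide-cleaving restriction factor, at 0.17 ± 0.28, and none of these passed in the authors' deposited table. In PGCs 0 passed in the authors' deposited table (0 also at an unadjusted p under 0.05, limma), as did 0.0% of all genes, and Mov10, an RNA helicase, had the smallest p at 0.55 ± 0.50.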

How the data were processed

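Sorted PGCs and soma were profiled by CUT&RUN with 18 PCR cycles, per the labels' protocols. Trim Galore 0.4.0, Bowtie2 2.2.5, Picard and the mm10 build are named in the submitters' processing notes. The sources used here do not give the counting, filters and scaling. The 4 deposited tables hold voom and limma output, per the file headers. In the authors' deposited tables the fold change and the mean CPM are on the log2 scale, t is a score, each p-value has a Benjamini-Hochberg adjusted p-value, and B, a natural log of odds, was not used.

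From these, SE was the log2 fold change over t. The soma p-values follow t with 7410 degrees of freedom and those of PGCs with 29.6. Tests relative to the median and of soma minus PGC (Satterthwaite, estimates taken as independent, two-sided) were adjusted over all families with SciPy 1.17.1. They were run on simulated data, with limma 3.58.1 tables for the direction. The simulated errors were independent between families, with the standard errors and degrees of freedom that the tests use. That checks the working of the tests and not the effect of errors shared by families. Depth came from the whole-read steps of the lowest 12 means, found for 7 and 10 libraries. Any rodent LINE-1 family could be named, with comparators as groups, the 5 families most like L1Md_A and listed genes with the smallest p or not passing. The members and lists were chosen with earlier results of these data known. The 17 IgG libraries were not used here.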

Additional observations from a re-analysis of the deposited data

How the results depend on the processing

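Of the counts and medians recomputed under the alternatives, 58 values stayed within 1.5 times the one reported or within the spread of the families and 4 did not. The exceptions concern the families lying below the soma median, 2 as reported, which became 0 with residual degrees of freedom, 1 at an adjusted p under 0.01 and 1 with the median gene as the centre, and the soma minus PGC difference, where 0 became 4 with the PGC sign turned (0 became 397 over all 1445 families). The degrees of freedom, the threshold and the centre are the alternative itself in each case. Most of the 58 values that stayed were counts of 0 that remained 0. Under those settings at most 0.54% of all families were called, so these values say little about how firm the other results are. With the median taken without simple repeats (1.29) or without the lowest quartile of means, L1_Mur3 also lay lower (adjusted p = 0.0163 and 0.0235). With the median gene as the centre 9 soma families that did not pass turned from below to above it. Of the 38 risen families, 37 passed with residual degrees of freedom, at an adjusted p under 0.01 and with the Benjamini-Yekutieli adjustment, where 67.4%, 69.4% and 68.0% of all families rose, L1_Mur1 being the exception each time. No paired analysis was possible because the tables hold no values per library, and for the same reason leaving out libraries was not run. The effect of depth and of the number of libraries on the errors was not compared. With residual degrees of freedom, no family of any kind lay below the soma median past the threshold.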
